A study of Mus musculus with 6 samples.

Results

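Interferon-stimulated genes were followed in activated mouse CD4 T cells, as a group of 37 genes taken by symbol from the 24047 rows of a gene count table. All 37 had a row, 33 held enough reads to test, and Mx1, Oas1a, Oas2 and Ifi44 did not. The cells came from mice of a B6.129 strain aged 7 weeks. One group of 3 libraries is labelled Srsf1-cKO (floxed Srsf1 on both alleles with the dLck.Cre transgene) and the other 3 are labelled WT. Cre in such mice is driven by the distal promoter of Lck, which acts in T cells late in their maturation, so that cells that escaped deletion can remain. The sources used here do not say whether the WT mice carried Cre or a floxed allele. In both groups naive splenic CD4 T cells were activated with antibodies to CD3 (0.5 µg/mL) and to CD28 (1 µg/mL) over 72 h. Phorbol ester (PMA, 100 ng/mL) with ionomycin (1 µM), which act below the T cell receptor, were then given for 4 h; the labels name no added interferon.

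Interferons bind receptors on the cell surface, and JAK kinases there activate STAT proteins. Type I interferons act mainly through a complex that holds STAT2 and IRF9 and binds interferon-stimulated response elements (ISRE), and interferon gamma, a product of activated T cells, acts mainly at gamma-activated sites (GAS). The induced genes encode sensors of foreign nucleic acid, proteins that bind or destroy viral RNA, GTPases that attack intracellular microbes, and proteins that amplify or damp the signal. Many of them respond to both kinds of interferon and are also expressed at a basal level without either.

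The promoters of these genes carry the ISRE letters far more often than promoters at large. The ISRE motif searched was GAAA and GAAA with NN between them, on both strands, in windows from 250 bases before to 50 bases after each annotated start (RefSeq, build GRCm38.p6). Of the 37 genes, 27 matched an entry, and 15 of these 27 (55.6%) held at least 1 match, against 3.99% of the 27025 genes with a window. GAS letters, TTCNNNGAA, which read the same on both strands, were found for 9 of the 27 (33.3%), against 9.55% of all genes. Some ISRE matches overlap each other, and in Bst2 one GAS match overlaps an ISRE match. A match is a description of the letters and not a bound site. Dhx58, Gbp6, Ifi27l2a, Mx1, Oas2, Parp14, Parp9, Rtp4, Usp18 and Zbp1 were not matched. The 250 bases before the start are printed here for Ifit1 and Ifit3, which rose within 1 family, for Gbp2, the gene with the largest fall, and for Isg15, where 3 matches follow each other. Capitals mark the ISRE letters.
Ifit1, chr19:34640639-34640888, plus strand: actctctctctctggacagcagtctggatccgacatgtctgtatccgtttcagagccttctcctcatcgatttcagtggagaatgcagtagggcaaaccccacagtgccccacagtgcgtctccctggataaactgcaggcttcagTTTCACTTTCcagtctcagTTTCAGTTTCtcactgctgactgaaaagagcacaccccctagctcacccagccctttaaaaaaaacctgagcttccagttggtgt
Ifit3, chr19:34583279-34583528, plus strand: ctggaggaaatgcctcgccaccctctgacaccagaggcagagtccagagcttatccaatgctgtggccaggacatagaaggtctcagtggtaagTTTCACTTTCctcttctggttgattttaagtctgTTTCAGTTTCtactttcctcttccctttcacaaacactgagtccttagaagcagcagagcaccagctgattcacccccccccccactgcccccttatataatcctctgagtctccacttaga
Gbp2, chr3:142620413-142620662, plus strand: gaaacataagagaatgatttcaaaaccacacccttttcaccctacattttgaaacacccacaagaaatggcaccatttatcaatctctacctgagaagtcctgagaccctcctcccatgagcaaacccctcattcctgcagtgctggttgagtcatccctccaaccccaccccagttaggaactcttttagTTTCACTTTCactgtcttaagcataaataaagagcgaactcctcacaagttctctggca
Isg15, chr4:156200819-156201068, minus strand: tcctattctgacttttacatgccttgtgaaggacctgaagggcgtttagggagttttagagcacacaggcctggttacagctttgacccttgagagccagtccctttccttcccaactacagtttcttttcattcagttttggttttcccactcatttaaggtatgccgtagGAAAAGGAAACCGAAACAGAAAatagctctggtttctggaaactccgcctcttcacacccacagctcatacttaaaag
Both Ifit genes carry 2 separate copies on the reverse strand, Gbp2 carries 1 copy, and the 3 copies of Isg15 share bases, so that they form 1 run. Of the tested genes with a window, 2 of the 3 that rose, 1 of the 2 that fell and 11 of the 20 that did not pass held the ISRE letters. The ISRE letters thus stood in front of genes of every outcome.

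**Figure D1:**
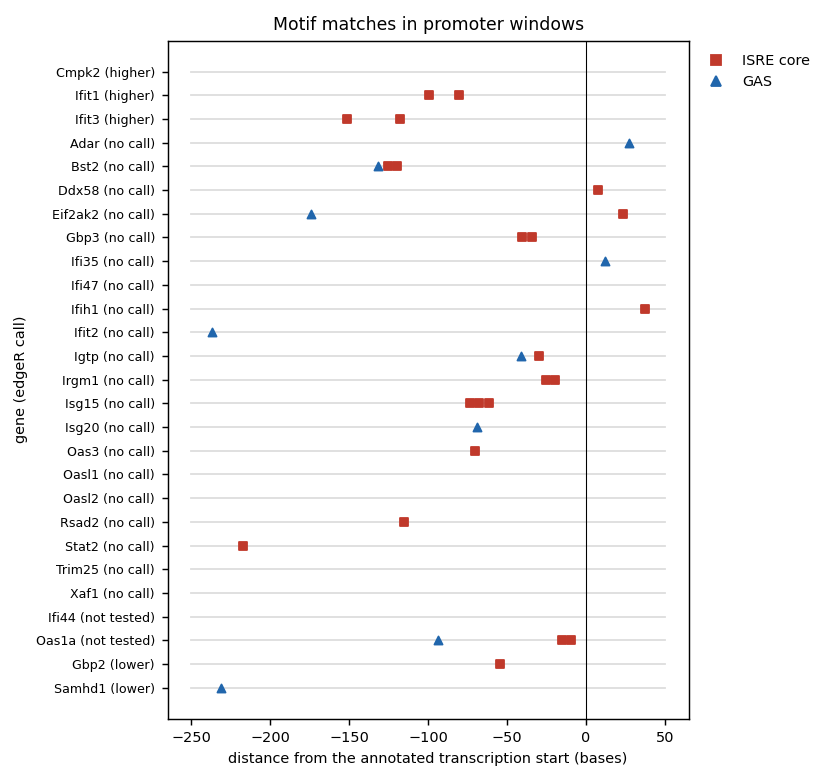
Position of each ISRE match (red squares) and GAS match (blue triangles) relative to the annotated start, in bases, for the 27 genes with a promoter window, with the edgeR result beside each name. Matches stand in rows of genes that rose, fell or did not pass.

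The libraries held between 7781283 and 10184268 gene counts. Srsf1, the targeted gene, encodes a splicing factor and stood at 523, 548 and 471 CPM (counts scaled to a common library size by TMM) in the libraries labelled Srsf1-cKO, against 540.5, 458 and 486 in WT. Its level was thus not lower, so Srsf1-cKO is used here as the label of 3 libraries, and rises and falls are read from that label. This is a count over the whole gene. Values for single exons would be needed to check the deletion, which was not tested. The T cell genes Cd3d, Cd3e, Cd3g, Cd4 and Lck were each at 124 CPM or more on average in both groups, and Il2ra, the most abundant marker, averaged 4905 CPM in Srsf1-cKO and 3801 CPM in WT. Of the 9 T cell markers checked 2 rose (22.2%, against 8.9% of all genes). These were Trat1 (log2 fold change 1.04, SE 0.22, edgeR adjusted p = 0.0158) and Cd3g (0.72, SE 0.21, edgeR adjusted p = 0.0452). The others did not pass, among them Cd5 (-0.25, SE 0.17) and Cd28 (-0.41, SE 0.15, edgeR adjusted p = 0.0841). For Cd28 all Srsf1-cKO libraries lay below all WT libraries.

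The interferon-stimulated genes moved in both directions. Ifit1, Ifit3, Cmpk2 and Ifi27l2a rose, Gbp2, Gbp6 and Samhd1 fell, and 26 did not pass edgeR's quasi-likelihood test at an adjusted p under 0.05. The 7 calls are 21.2% of the 33 tested, near the 18.4% of all 10454 genes that were called. The 4 rises are 12.1% (8.9% of all genes) and the 3 falls 9.09% (9.5% of all genes). An unadjusted p under 0.05 was found for 17 of the 33, and for 34.9% of all genes. Log2 fold changes ran from -1.12 (Gbp2) to 2.09 (Ifit1), 25 above 0 and 8 below, with a median of 0.31, where all genes tested had 0.01. For 4 of the 33 (Cmpk2, Oasl1, Oasl2 and Rtp4) at least 1 WT library lay below the filter on low counts, and Cmpk2 passed that filter through the Srsf1-cKO libraries alone, so it entered the test only because it was higher there. The count rests heavily on single libraries, since 0 of the 33 passed without WT replicate 1, where 195 genes in all passed, and 2, Ifit1 and Ifit3, without Srsf1-cKO replicate 2, where 234 passed. When Srsf1-cKO replicate 1 was dropped, 2 rose and 2 fell (568 and 553 in all genes). The median was 0.14 without WT replicate 1. The authors' FPKM values gave 1 fall, Gbp2, and rises of Ifit1, Ifit3, Ifi27l2a, Isg20 and Usp18. There 1801 of all genes were called with limma on log2(FPKM + 1), 1186 of them as rises. In bulk samples fewer cells expressing a gene and less RNA per cell cannot be told apart.

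**Figure D2:**
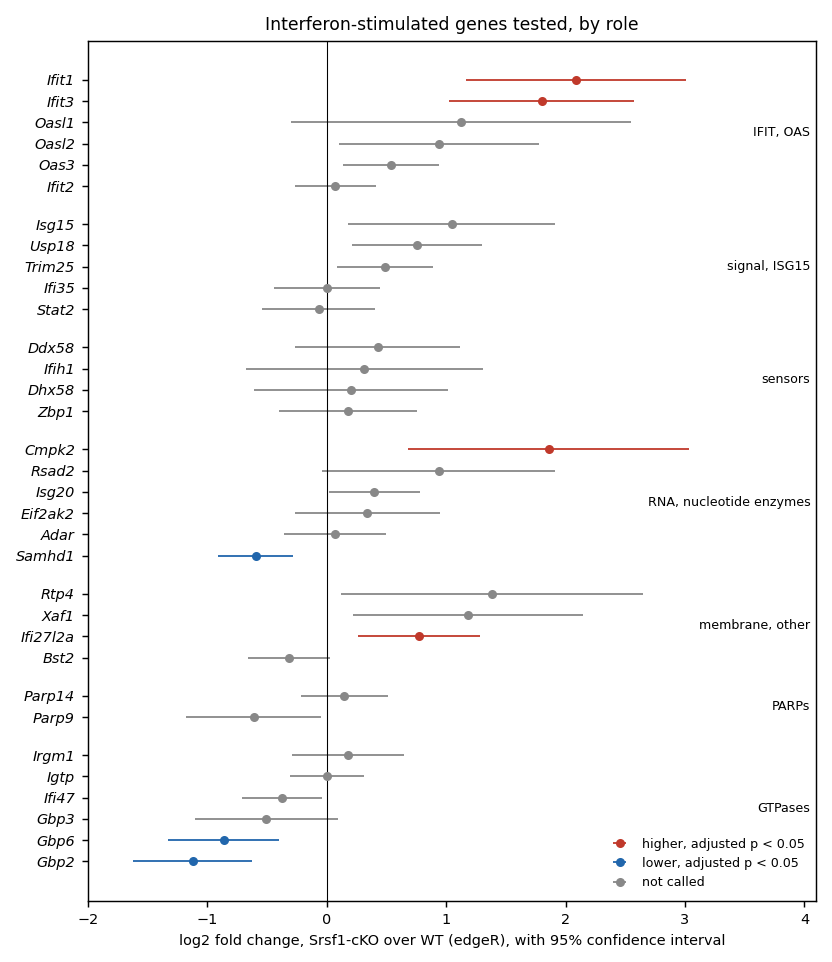
Log2 fold change of each of the 33 tested genes, Srsf1-cKO over WT, with its 95% confidence interval, in blocks by role. The IFIT and OAS block lies to the right of 0, from 0.07 for Ifit2 to 2.09 for Ifit1, and the GTPase block runs from 0.18 for Irgm1 to -1.12 for Gbp2.

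The genes also differed widely in level. Per transcript length, in the authors' FPKM values averaged over the 6 libraries, 16 of the 37 stood at 10 or more, 12 between 1 and 10, and 9 under 1. Gbp2 (184 FPKM), Ifi27l2a (158 FPKM), Igtp (111 FPKM) and Samhd1 (84.9 FPKM) led, while Mx1 (0.127 FPKM), a classic antiviral GTPase gene, was the lowest. Of the genes that fell, all 3 were among those at 10 or more, and of the 4 that rose, Ifi27l2a was among them, Ifit1 and Ifit3 stood at 3.78 and 2.80 FPKM and Cmpk2 at 0.273 FPKM. Summed over the 37 genes the level was between 2258 and 2400.4 CPM in Srsf1-cKO and between 2625 and 3224 CPM in WT. Gbp2 and Samhd1 took much of this sum, Gbp2 12.1% to 19.7% of its counts in Srsf1-cKO and 23.1% to 32.3% in WT. The other 35 genes together held 1472 to 1654 CPM in Srsf1-cKO and 1346 to 1660 CPM in WT, ranges that overlap. Gbp2 and Samhd1 are genes that fell, while every gene that rose was kept in this sum. Leaving Gbp2 and Samhd1 out thus narrows the gap by construction, and no conclusion is drawn from the overlap.

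**Figure D3:**
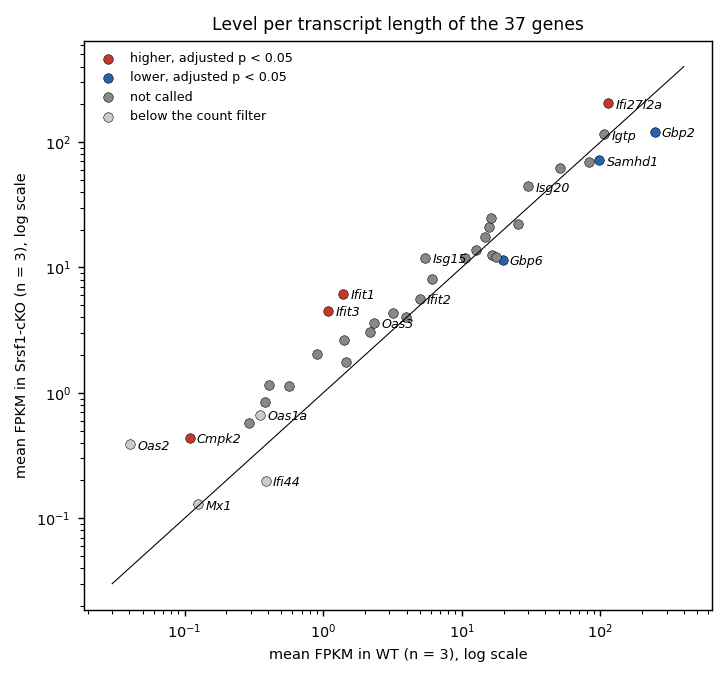
Mean FPKM of the 37 genes in WT (x axis) and in Srsf1-cKO (y axis), n = 3 each, both axes on a log scale, with the line of equal level. Red points rose and blue points fell by the edgeR test on counts, and the 4 pale points are genes too low to test.

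The IFIT and OAS families gave the clearest rises. IFIT proteins bind viral RNA and block its translation, and OAS enzymes make a short adenylate chain that activates an RNA-degrading enzyme. Of 6 tested members 2 rose (8.9% of all genes did) and 0 fell by edgeR, and 4 had an unadjusted p under 0.05 (34.9% of all genes). DESeq2, fitted without the filter on low counts, called 3 of the 8, and limma-voom called 2 of the 6. Over all genes DESeq2 called 2289 of 15114 and limma-voom 1896 of 10454. Ifit1 stood at 12.6, 14.0 and 33.3 CPM in Srsf1-cKO, against 3.32, 5.33 and 5.54 CPM in WT. Every Srsf1-cKO library lay above every WT library, and Srsf1-cKO replicate 3 was far above its own group. Ifit1 had a log2 fold change of 2.09 with an SE of 0.41 (interval at 95%, 1.16 to 3.01; edgeR adjusted p = 0.0129). It was 1.497 without Srsf1-cKO replicate 3 (edgeR adjusted p = 0.0221). Ifit3 stood at 6.92, 5.47 and 9.39 CPM in Srsf1-cKO, against 2.54, 2.34 and 1.32 CPM in WT. These groups did not overlap either, and the log2 fold change was 1.80 (SE 0.34, edgeR adjusted p = 0.0117). Without WT replicate 1 both genes narrowly missed the threshold, at edgeR adjusted p = 0.0718 for Ifit1 and 0.0543 for Ifit3.

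Ifit2, whose product also binds RNA and which lies near them in the genome, did not follow. It stood at 28.3, 26.9 and 30.1 CPM in Srsf1-cKO, against 26.0, 25.2 and 29.96 CPM in WT, and the groups overlapped. Ifit2 had a log2 fold change of 0.07 with an SE of 0.15 (interval at 95%, -0.27 to 0.41; edgeR adjusted p = 0.76). A ratio of both genes within each library needs no scaling between libraries. Ifit1 had 0.447, 0.519 and 1.11 counts for each Ifit2 count in Srsf1-cKO, against 0.128, 0.211 and 0.185 in WT. The groups did not overlap, with an exact two-sided permutation p of 0.1, the smallest that 3 against 3 libraries allow. This ratio, and that of Gbp2 to Igtp below, were chosen after the values were seen, and the p adjusted over both is 0.1. Each sets a gene that passed against a relative that did not, so the p adds no support to the calls.

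Among the OAS genes none passed the test. Oas3, the one with the highest CPM, stood at 23.1, 22.1 and 21.2 CPM in Srsf1-cKO, against 12.7, 15.2 and 17.8 CPM in WT. All Srsf1-cKO libraries were above all WT libraries, with a log2 fold change of 0.54 (SE 0.18, edgeR adjusted p = 0.066). It passed with library-size scaling (edgeR adjusted p = 0.0431) and without WT replicate 3 (0.65, edgeR adjusted p = 0.045). No other fit that dropped 1 library called Oas3. Oasl1 and Oasl2, whose products are OAS-like, had log2 fold changes of 1.12 (SE 0.63, edgeR adjusted p = 0.236) and 0.94 (SE 0.37, edgeR adjusted p = 0.107), both on means of at most 2.30 CPM. Oas2 was below the filter, with 20, 22 and 11 reads in Srsf1-cKO, against 1, 2 and 2 reads in WT. Without a filter Oas2 passed (edgeR adjusted p = 0.00651), and its groups did not overlap. Oas1a held 11, 9 and 10 reads in Srsf1-cKO, against 14, 6 and 1 reads in WT, and was not tested.

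Genes of the ISG15 system and of the signal itself did not pass. Of the 5 in this block 0 were called by edgeR, DESeq2 or limma-voom, while 3 had an unadjusted p under 0.05, as had 34.9% of all genes. Isg15 encodes a ubiquitin-like protein that is joined to other proteins. It stood at 6.48, 6.58 and 13.5 CPM in Srsf1-cKO, against 4.86, 2.60 and 5.41 CPM in WT. The groups did not overlap, and Srsf1-cKO replicate 3 was again the highest. The log2 fold change was 1.05 (SE 0.38, edgeR adjusted p = 0.0877), and 0.60 without that library. Usp18, which encodes the enzyme that removes ISG15 and damps type I receptor signalling, stood at 5.51, 5.80 and 5.63 CPM in Srsf1-cKO, against 3.21, 3.64 and 3.17 CPM in WT. Its groups did not overlap and were tight, with a log2 fold change of 0.76 (SE 0.24, edgeR adjusted p = 0.0591). Library-size scaling (edgeR adjusted p = 0.0416) and limma on the FPKM values (adjusted p = 0.0256) called it.

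Trim25, the gene of a ubiquitin ligase that acts on the sensor RIG-I, was the most abundant of the block per library, at 156, 201 and 181 CPM in Srsf1-cKO, against 121, 104 and 159 CPM in WT. WT replicate 3 overlapped the other group, and the log2 fold change was 0.49 (SE 0.18, edgeR adjusted p = 0.0866), or 0.66 (edgeR adjusted p = 0.022) without that library. Trim25 was called by no other fit that dropped 1 library. Stat2, the STAT particular to type I and type III receptors, had a log2 fold change of -0.07 (SE 0.21, 95% confidence interval -0.54 to 0.41) and changed sign with library-size scaling (0.036). Ifi35 had 0.005 (SE 0.20, 95% confidence interval -0.44 to 0.45), and its sign also turned with the scaling.

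The 4 sensor genes, which encode detectors of viral RNA or of unusual nucleic acid, did not pass by edgeR, DESeq2 or limma-voom, and 0 had an unadjusted p under 0.05. For each of them the groups overlapped and WT spread more than Srsf1-cKO. Ifih1, the gene of MDA5, was the most abundant by CPM, at 47.7, 58.4 and 70.7 CPM in Srsf1-cKO, against 25.6, 27.1 and 89.7 CPM in WT. WT replicate 3 was the highest of all 6 libraries and the other WT libraries were the lowest. The log2 fold change of Ifih1 was 0.31 (SE 0.44, edgeR adjusted p = 0.64), and 1.14 (edgeR adjusted p = 0.00673) without WT replicate 3. Ddx58, the gene of RIG-I, stood at 15.9, 19.8 and 25.2 CPM in Srsf1-cKO, against 11.4, 22.9 and 11.1 CPM in WT. Here WT replicate 2 was the high one, and without it the log2 fold change was 0.84 instead of 0.43 (edgeR adjusted p = 0.0454 instead of 0.352). No other fit that dropped 1 library called Ifih1 or Ddx58, and the libraries dropped here held their highest WT values. Zbp1, a sensor of left-handed nucleic acid, and Dhx58, the gene of LGP2, had log2 fold changes of 0.18 (SE 0.26) and 0.21 (SE 0.36).

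Enzymes that act on RNA or nucleotides moved in both directions, with 1 of 6 higher and 1 lower (8.9% and 9.5% of all genes). Samhd1, whose product destroys the nucleotides needed for DNA synthesis, fell. It stood at 342, 343 and 408 CPM in Srsf1-cKO, against 499.7, 626 and 522 CPM in WT, without overlap. The log2 fold change was -0.59 (SE 0.14, edgeR adjusted p = 0.0226). In the FPKM table, where the median of all genes lay at 0.10, Samhd1 did not pass (-0.46, limma adjusted p = 0.0617), nor did it pass by edgeR when Srsf1-cKO replicate 1, Srsf1-cKO replicate 2 or WT replicate 1 was dropped (adjusted p = 0.0752, 0.11 and 0.0635). Cmpk2, which encodes a mitochondrial nucleotide kinase and neighbours Rsad2, rose on few reads, with 12, 14 and 27 in Srsf1-cKO, against 7, 2 and 3 in WT. The groups did not overlap, with a log2 fold change of 1.86 (SE 0.52, edgeR adjusted p = 0.0393). The call was lost with DESeq2 (adjusted p = 0.0656), with a replicate block (edgeR adjusted p = 0.0516) and without any 1 of the 6 libraries (edgeR adjusted p from 0.059 to 0.108).

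Rsad2, the gene of viperin, which makes a chain-terminating nucleotide, stood at 3.35, 5.25 and 7.98 CPM in Srsf1-cKO, against 1.55, 3.12 and 4.09 CPM in WT. The groups overlapped, and the log2 fold change was 0.94 (SE 0.43, edgeR adjusted p = 0.157). Isg20, an RNA exonuclease gene, had 0.40 (SE 0.17, edgeR adjusted p = 0.129), and limma on the FPKM values called it (adjusted p = 0.047). Eif2ak2, the gene of the kinase PKR, had 0.34 (SE 0.27, edgeR adjusted p = 0.397). Adar, whose product edits adenosine in double-stranded RNA, had 0.07 (SE 0.19, 95% confidence interval -0.36 to 0.50).

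The interferon-inducible GTPases included the falls of largest size. They attack the vacuoles in which microbes live, and guanylate-binding proteins (GBP) and immunity-related GTPases (IRG) are known targets of interferon gamma. Of 6 tested, 2 fell and 0 rose by edgeR, where 9.5% of all genes fell and 8.9% rose. DESeq2 and limma-voom each called 2, beside 2289 of 15114 and 1896 of 10454 over all genes. An unadjusted p under 0.05 was found for 3, against 34.9% of all genes. Gbp2 was the most abundant, at 444, 404 and 282 CPM in Srsf1-cKO, against 779, 636 and 1043 CPM in WT. All Srsf1-cKO libraries were below all WT libraries, with a log2 fold change of -1.12 and an SE of 0.22 (interval at 95%, -1.62 to -0.62; edgeR adjusted p = 0.0131). Without Srsf1-cKO replicate 2 or WT replicate 1 it was -1.17 in both, with edgeR adjusted p = 0.0575 and 0.0569. Gbp6 stood at 32.4, 31.5 and 22.3 CPM in Srsf1-cKO, against 41.2, 54.9 and 60.6 CPM in WT. Its groups did not overlap, with a log2 fold change of -0.86 (SE 0.20, edgeR adjusted p = 0.0236). The FPKM table gave -0.73 (limma adjusted p = 0.0527). By edgeR the call was lost when Srsf1-cKO replicate 2 or 3 or WT replicate 1 was dropped (adjusted p = 0.0766, 0.0533 and 0.0536). Gbp6 has close copies in the same gene cluster, so its reads may be shared with them.

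The other GTPase genes did not pass. Gbp3 had a log2 fold change of -0.50 (SE 0.26, edgeR adjusted p = 0.207), and Ifi47, an IRG gene, had -0.37 (SE 0.15, edgeR adjusted p = 0.107) with no overlap between the groups. Igtp, also an IRG gene, whose annotated span overlaps that of Irgm2 on the same strand, stood at 258, 276 and 299 CPM in Srsf1-cKO, against 243, 271 and 316 CPM in WT. Its groups overlapped fully, with a log2 fold change of 0.004 (SE 0.14, 95% confidence interval -0.30 to 0.31). Irgm1, which regulates the other IRG proteins, had 0.18 (SE 0.21, edgeR adjusted p = 0.564). Within each library Gbp2 had 1.72, 1.46 and 0.943 counts for each Igtp count in Srsf1-cKO, against 3.20, 2.34 and 3.30 in WT, with no overlap (exact two-sided permutation p = 0.1). Mx1 held 1, 9 and 3 reads in Srsf1-cKO, against 6, 4 and 1 reads in WT. Tested GBP and IRG genes outside the 37 also went both ways. Gbp4 (log2 fold change 0.34), Irgm2 (0.38) and Gbp9 (0.23) lay above 0. Gbp5, Gbp7, Gbp8, Gbp10, Gbp11, Iigp1 and Tgtp2 lay below 0, and of all these only Tgtp2 passed.

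**Figure D4:**
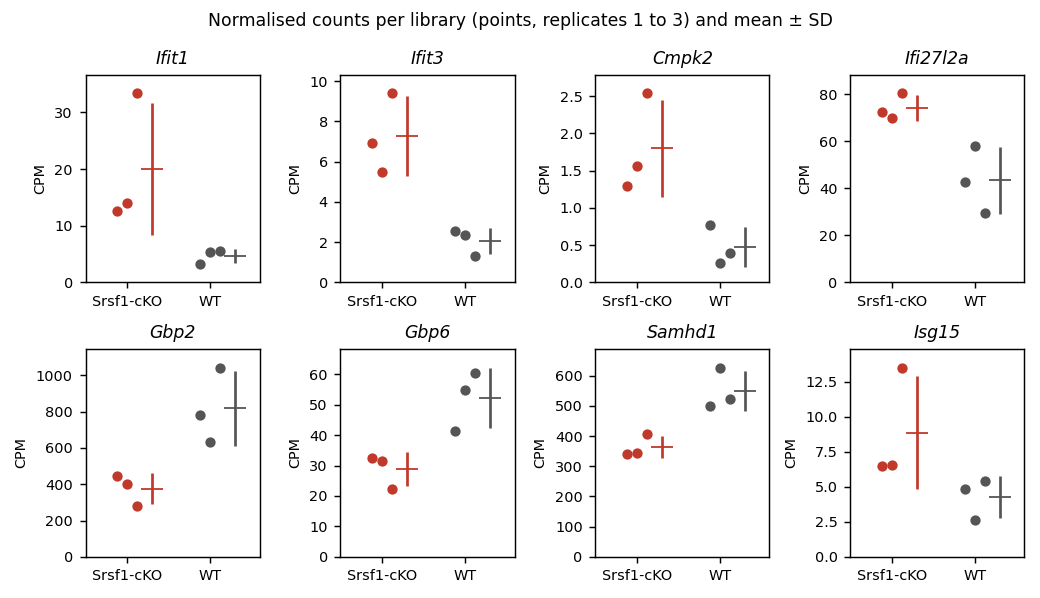
CPM in each library (points, replicates 1 to 3 from left to right) with mean ± SD (n = 3 each) for the 4 genes that rose, the 3 that fell and Isg15, which did not pass. The groups do not overlap for any of the 8 genes, and Srsf1-cKO replicate 3 is the highest library for Ifit1, Ifit3, Cmpk2, Ifi27l2a and Isg15 and the lowest for Gbp2 and Gbp6.

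Of the remaining genes Ifi27l2a, which encodes a small membrane protein, rose. It stood at 72.5, 69.98 and 80.4 CPM in Srsf1-cKO, against 42.6, 58.3 and 29.6 CPM in WT, without overlap. The log2 fold change was 0.77 (SE 0.23, edgeR adjusted p = 0.0443). The call was lost with upper-quartile scaling (edgeR adjusted p = 0.0509). Of the 6 fits that dropped 1 library each, only that without WT replicate 2 kept it (edgeR adjusted p from 0.0155 to 0.16). Xaf1, a gene linked to apoptosis, had a log2 fold change of 1.18 (SE 0.43, edgeR adjusted p = 0.0846), and 1.86 (edgeR adjusted p = 0.0136) without WT replicate 2. Among the fits that dropped 1 library, only this one called Xaf1. With all 6 libraries, limma-voom and the edgeR fit with a replicate block called it as well. Rtp4, a chaperone of membrane receptors, had 1.38 (SE 0.56, edgeR adjusted p = 0.115) on means of 2.26 CPM in Srsf1-cKO and 0.846 CPM in WT. Bst2, the gene of tetherin, which holds virus particles at the cell surface, had -0.31 (SE 0.15, edgeR adjusted p = 0.172). It varied little, at 17.6, 17.5 and 17.6 CPM in Srsf1-cKO, against 22.8, 20.9 and 21.9 CPM in WT, and the groups did not overlap. Ifi44 held 8, 6 and 8 reads in Srsf1-cKO, against 6, 16 and 14 reads in WT, and was not tested.

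The ADP-ribosyltransferase genes Parp9 and Parp14, whose products act as partners in macrophage interferon responses, did not pass by edgeR, DESeq2 or limma-voom, and 1 had an unadjusted p under 0.05 (34.9% of all genes). Parp9, whose span overlaps that of Dtx3l on the opposite strand, stood at 61.9, 56.4 and 53.6 CPM in Srsf1-cKO, against 84.9, 122 and 55.7 CPM in WT. WT replicate 3 overlapped the other group, and the log2 fold change was -0.61 (SE 0.25, edgeR adjusted p = 0.117), or -0.87 (edgeR adjusted p = 0.0124) without that library. Parp9 was called by no other fit that dropped 1 library. Parp14, the more abundant, had 0.15 (SE 0.16, edgeR adjusted p = 0.548).

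**Figure D5:**
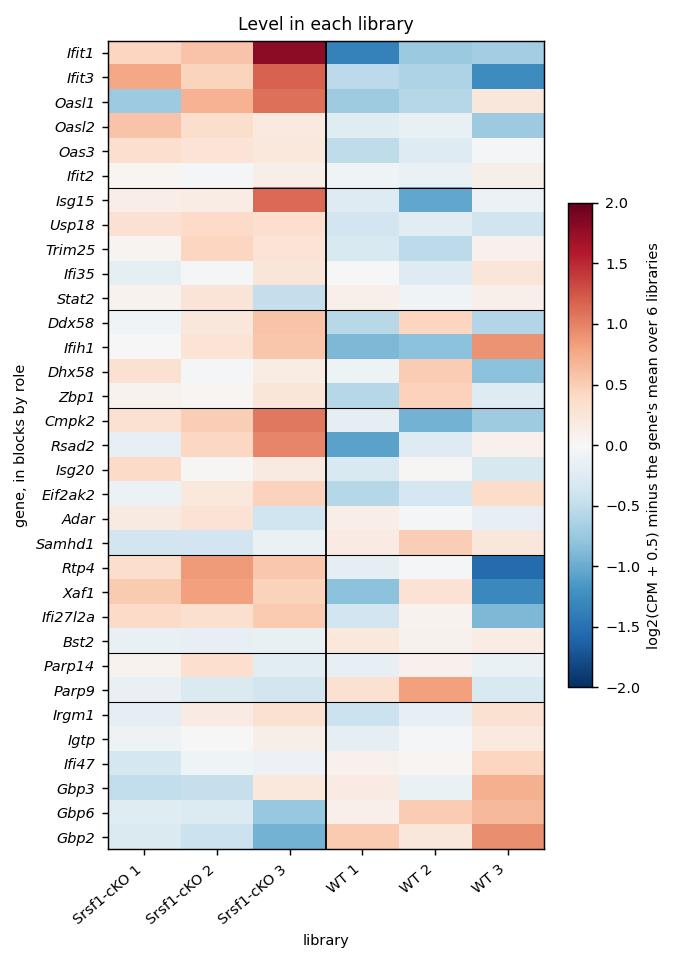
Level of the 33 tested genes in each library as log2(CPM + 0.5) minus the gene's mean over the 6 libraries, with blocks by role. Ifit1 and Ifit3 are high in all Srsf1-cKO columns, Gbp2 and Gbp6 are high in all WT columns, and WT replicate 3 is high for Ifih1.

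Counting whole libraries rather than tests, all Srsf1-cKO values lay above all WT values for 10 of the 33 genes and below for 5, against 19.9% and 19.5% of all genes tested. These shares, 15 of 33 in all, stand beside 39.4% of all genes. The 10 were Ifit1, Ifit3, Isg15, Oas3, Oasl2, Usp18, Cmpk2, Ifi27l2a, Xaf1 and Rtp4. The 5 were Gbp2, Gbp6, Samhd1, Ifi47 and Bst2. Of the 10, Cmpk2, Rtp4 and Oasl2 reached the filter on low counts in 3 Srsf1-cKO libraries but in 0, 1 and 2 WT libraries. They were thus tested in part because they were higher in Srsf1-cKO.

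Upstream of these genes, Ifng was far higher in the libraries labelled Srsf1-cKO, while genes of type I and type III interferons were barely detected. Ifng, the gene of interferon gamma, stood at 55.8, 55.7 and 107 CPM in Srsf1-cKO, against 1.44, 3.90 and 11.1 CPM in WT. Its log2 fold change was 3.76 (SE 0.58, edgeR adjusted p = 0.00761), and Srsf1-cKO replicate 3 was the highest. The 10 listed genes of type I and type III interferons held 3 reads in all 3 Srsf1-cKO libraries and 2 in all 3 WT libraries, and 6 of them held 0 in all 6. A count of 0 allows up to 3 reads, or 0.295 to 0.386 CPM in these libraries, by counting error alone. Only RNA present when the cells were taken was measured.

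Of 28 tested genes for interferon ligands, receptors and signalling, 2 rose and 4 fell, 21.4% against 18.4% of all genes, with a median log2 fold change of -0.06 (0.01 over all genes). Besides Ifng, Socs3, a feedback inhibitor of cytokine receptors, rose (log2 fold change 0.98, SE 0.20, edgeR adjusted p = 0.0138). Irf2, a repressor at interferon response elements, fell (-0.67, SE 0.14, edgeR adjusted p = 0.0158). Tmem173, the gene of the adaptor STING, fell (-0.64, SE 0.14, edgeR adjusted p = 0.0186). Irf5 (-0.98, SE 0.28, edgeR adjusted p = 0.043) and Irf8 (-0.48, SE 0.14, edgeR adjusted p = 0.0452) fell as well. Jak2, the most abundant of the list by CPM and a kinase of the interferon gamma receptor, had -0.48 (SE 0.21, edgeR adjusted p = 0.14). Without WT replicate 1 the list had 1 rise and 0 falls (80 and 115 in all genes). Without WT replicate 2 it had 4 rises and 3 falls (968 and 1021 in all genes). Dropping Srsf1-cKO replicate 1, 2 or 3 left 1, 0 or 2 falls (553, 103 or 687 in all genes). With library-size scaling, where the median of all genes lay at 0.11, the list had 3 rises and 2 falls. All genes then had 1268 and 709.

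A second list of interferon-induced genes outside the 37 also changed in both directions. Of 50 tested, 8 rose and 4 fell, 24% against 18.4% of all genes, with a median log2 fold change of 0.23. Ifi203, of the family of DNA-binding HIN proteins, stood at 242, 236 and 219 CPM in Srsf1-cKO, against 109, 124 and 96.7 CPM in WT. Its groups lay far apart, with a log2 fold change of 1.08 (SE 0.13, edgeR adjusted p = 0.00478). Uba7, which encodes the enzyme that activates ISG15, rose by 1.17 (SE 0.23, edgeR adjusted p = 0.0134). Cxcl10, a chemokine gene, rose by 1.97 (SE 0.44, edgeR adjusted p = 0.0197). Ifitm1 rose on 13, 19 and 69 reads in Srsf1-cKO, against 0, 3 and 2 reads in WT (edgeR adjusted p = 0.0198), and Trim34a on 11, 11 and 13 reads, against 3 in each WT library (edgeR adjusted p = 0.0354). These 2 genes and Parp12, 3 of the 12 called, reached the filter on low counts in no WT library, so they were tested only because they were higher in Srsf1-cKO.

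Among the falls of that list were Sp140, a nuclear body gene (-0.97, SE 0.16, edgeR adjusted p = 0.00888), and Parp10 (-0.88, SE 0.17, edgeR adjusted p = 0.012). Cd274, the gene of the inhibitory ligand PD-L1, fell to 368, 268 and 384 CPM in Srsf1-cKO, against 540.4, 459 and 549 CPM in WT (-0.60, SE 0.16, edgeR adjusted p = 0.0348). Tgtp2, an IRG gene with a near-identical copy, fell as well (-0.72, SE 0.20, edgeR adjusted p = 0.0381). Shisa5, the most abundant of the list, had 0.21 (SE 0.15, edgeR adjusted p = 0.345). Dropping WT replicate 1 left 1 rise and 1 fall (80 and 115 in all genes). Dropping Srsf1-cKO replicate 2 left 1 and 0 (131 and 103 in all genes). Dropping Srsf1-cKO replicate 1 left 4 and 2 (568 and 553 in all genes). Dropping replicate 3 of that label left 5 and 4 (689 and 687 in all genes). Library-size scaling gave 8 and 2 (1268 and 709 in all genes). DESeq2 called 5 and 5 (1070 and 1219 in all genes).

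Genes that mark other cells differed in the same samples, some of them upward. Of 27 with a row, 14 were tested, 4 rose (8.9% of all genes did) and 0 fell by edgeR, and 8 had an unadjusted p under 0.05 (34.9% of all genes). DESeq2 called 5 and limma-voom 4, beside 2289 of 15114 and 1896 of 10454 over all genes. Log2 fold changes were above 0 for 10 and below 0 for 4. H2-Aa, of MHC class II, stood at 17.0, 25.0 and 11.5 CPM in Srsf1-cKO, against 2.10, 5.98 and 1.58 CPM in WT, and rose (log2 fold change 2.47, SE 0.48, edgeR adjusted p = 0.0124). H2-Ab1, the gene of its partner chain, averaged 12.3 CPM in Srsf1-cKO and 15.01 CPM in WT and did not pass (-0.29, SE 0.47, edgeR adjusted p = 0.693). The myeloid gene Lyz2 stood at 3.13, 4.80 and 14.0 CPM in Srsf1-cKO, against 2.10, 0.520 and 0 CPM in WT (edgeR adjusted p = 0.0424). Its highest library, Srsf1-cKO replicate 3, was the lowest of that label for H2-Aa, Cd74 and Cd79a. Cd74 and Cd79a also rose (log2 fold changes 0.86 and 2.08, edgeR adjusted p = 0.0132 and 0.0287), and Cd79a, on 6, 6 and 1 reads in WT, reached the filter on low counts through the Srsf1-cKO libraries alone. The other markers below 0 were Cd8b1 (-0.60, SE 0.24, edgeR adjusted p = 0.115), Zbtb46 (-0.62, SE 0.50, edgeR adjusted p = 0.412) and Tcf4 (-0.11, SE 0.23, edgeR adjusted p = 0.764). Summed over all 27, the level was 201 to 224 CPM in Srsf1-cKO and 125 to 166 CPM in WT, with Cd74 giving the largest part (means of 81.7 CPM in Srsf1-cKO and 45.1 CPM in WT). No marker rise was left when Srsf1-cKO replicate 2 or WT replicate 1 was dropped (131 and 80 rises in all genes). When Srsf1-cKO replicate 3 was dropped, 2 marker rises were left (689 in all genes). The 13 untested markers held at most 24 reads in any library, and Siglech of plasmacytoid dendritic cells and Ncr1 of NK cells were at 0 in all 6. The part of such cells in the results for the interferon-stimulated genes was not tested.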

How the data were processed

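RNA of mouse T cells was read in 6 libraries, 3 a genotype. Per the series' design text the kit was TruSeq Stranded mRNA and reads were single, of 75 bp. The authors deposited whole-number gene counts and a second table whose values were read as FPKM, since they are not whole and scale with length. Per the submitters' processing notes the tools were STAR and Cufflinks and the build mm9; the deposited alignment report, whose other metrics were used for depth alone (8924098 to 12007130 uniquely mapped reads), names STAR 2.4.2a. The sources used here give no annotation, counting program or strand setting. Reads of overlapping genes (Igtp with Irgm2, Parp9 with Dtx3l, Ifi47 with Olfr56, in GENCODE on GRCm38) and of close copies may be shared.

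The test on counts was that of edgeR 4.0.16 under R 4.3.3 (filterByExpr, minimum count 10 and total 15; TMM; quasi-likelihood test, two-sided; Benjamini-Hochberg over 10454 genes), genotype being the only term. Alternatives used DESeq2 1.42.0, limma 3.58.1 with voom, other scalings and filters, a block on replicate number, fits lacking 1 library, thresholds of 0.01 and 0.10, and limma with a trend on log2(FPKM + 1) or log2(FPKM + 0.1) where 3 libraries or more reached 1; on that scale folds of low genes come out too small. The main edgeR fit, DESeq2 and limma-voom were tested on simulated counts, and the other alternatives were not. Replicates differed by more than sampling noise (chi-square per degree of freedom at least 6.53). The design text gives 3 mice a genotype. The 37 genes and the lists were chosen with earlier results of these data known. Genes were named by a fixed rule: every one of the 37, and from other lists up to 5 called genes in each direction and the most abundant. Some other genes of those lists were named to show both directions.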

Additional observations from a re-analysis of the deposited data

How the results depend on the processing

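The 33 log2 fold changes were recomputed under 18 alternatives, and 527 of 584 values kept their side of the threshold. Without 1 library each, when 34 to 36 of the 37 could be tested, rises and falls among these ranged from 0 to 6 and 0 to 4, the median from 0.14 to 0.35, rises and falls of all genes from 80 to 968 and 103 to 1074, of the signalling list from 1 to 4 and 0 to 3, of the further interferon-induced list from 1 to 7 and 0 to 6, and rises of other cell markers from 0 to 6. Fewer samples entered these fits. At a threshold of 0.01 the 33 had 0 rises and 0 falls, all genes 133 and 146, the signalling list 1 and 0, the further list 1 and 1 and the markers 0 rises; at 0.10 there were 9 rises among the 33, 1452 and 1520 in all genes, 5 and 7 in the signalling list and 7 falls in the further list. The FPKM table gave 1 fall among the 33 with both pseudocounts, and 615 and 607 falls in all genes. Ifit1, Ifit3, Ifi27l2a, Isg20 and Usp18 rose with both, where 1186 and 1167 of all genes rose. The FPKM values also gave 2 falls in each interferon list, and 7 marker rises (pseudocount 1). The cause was not tested. Library-size scaling gave 2 falls in each interferon list (709 in all genes). DESeq2 gave 5 rises in the further list (1070 in all genes), and without a filter 8 markers rose (998 in all genes).

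Signs turned for genes near 0, none of them called: Stat2 with library-size scaling (0.036) and with single libraries left out (-0.23 to 0.13), Ifi35 with RLE scaling (-0.0052), no filter (-0.0088) and DESeq2 (-0.0030) and with single libraries left out (-0.13 to 0.12), Igtp likewise (-0.0054, -0.0090 and -0.0032, and -0.096 to 0.092), Adar (-0.065 to 0.26), Dhx58 without WT replicate 3 (-0.10, others up to 0.61) and Zbp1 without WT replicate 1 (-0.046, others up to 0.53).

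Same-numbered libraries had correlations of 0.222, 0.0128 and 0.272 of their deviations from the group means. Srsf1-cKO replicates 1 and 3 correlated best with the WT library of their own number, and replicate 2 with WT replicate 1 (0.0585). These values do not settle whether the numbers mark pairs, and the main fit did not take them as such. With a replicate block 6 of the 33 rose, among them Isg15, Rsad2 and Xaf1, and 4 fell, among them Gbp3. In that fit 6 genes of the signalling list rose, and 2270 of all genes were called. Genes under about 2 CPM rest on few reads, and intervals and limits for a count of 0 cover counting error only.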

Other observations

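The count and FPKM tables differed for one interferon-induced GTPase pair. Tgtp1 was listed at 0 counts in all 6 libraries, yet the authors' FPKM values for it were 26.7, 45.5 and 59.6 in Srsf1-cKO and 72.7, 60.5 and 96.1 in WT. Tgtp2, its near-identical copy, had 44.9, 48.2 and 49.0 FPKM in Srsf1-cKO and 61.6, 57.6 and 79.7 FPKM in WT, and its counts averaged 23.9 CPM in Srsf1-cKO and 39.2 CPM in WT. Both FPKM columns were lower in every Srsf1-cKO library than in every WT library.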
